A study of Mus musculus with 8 samples.

Results

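The genes described here are 10 mouse genes for replication-independent histone variants: H2afz, H2afv, H2afx, H2afy, H2afy2, H3f3a, H3f3b, H1f0, H1fx and Cenpa. They were taken by symbol from the 23420 genes of each library, by a rule that holds no measured value although earlier results of these data were known, and all 10 passed the filter on low counts. The 8 RNA-seq libraries came from mouse embryonic fibroblasts (MEFs) of a C57BL6/N background that carried the adenoviral oncoprotein E1A and the activated oncogene HRasV12, and 4 were wild-type and 4 were Neat1-/- (called Neat1 null below). Both genotypes thus expressed the transforming oncogenes, and the sources used here do not give the age of the embryos or how the null allele was made. Whether replicates were independent embryos or only separate dishes was not stated either, so each p-value reflects a library-to-library spread that may be technical. Xist and the Y-linked genes, given below, set Neat1 null library 3 apart from the other Neat1 null libraries. These libraries were therefore not all dishes of 1 embryo, and the origin of the rest stays unknown. The comparison asks which of these genes differ in oncogene-transformed fibroblasts that lack Neat1, a long noncoding RNA and the scaffold of nuclear paraspeckles.

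Nucleosomes wrap DNA around the core histones, and most core histone protein is made in S phase from clustered, intronless genes. The messages of those cluster genes end in a conserved stem-loop instead of a poly(A) tail. Variant histone genes lie apart from the clusters, mostly yield polyadenylated messages, and replace the standard histones outside replication or at special sites. Examples are H3.3 in active chromatin, H2A.Z at promoters, H2A.X at DNA breaks, macroH2A in repressed chromatin, CENP-A at centromeres and H1.0 in cells that slow their division. The variant genes can therefore be read beside the cluster genes as polyadenylated counterparts, although the labels do not say whether poly(A) RNA was selected.

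The 3′ ends of the reference transcripts are shown first, because the kind of end mostly sets the variant genes apart from the cluster genes. All 10 variant genes had a poly(A) signal (AATAAA or ATTAAA) in the last 50 bases of a transcript, as did 80.7% of protein-coding genes and 16 of 66 cluster histone genes. The histone stem-loop was searched after the stop codon as a 6-base stem starting with GG, a 4-base loop and the paired stem, with at most 1 unpaired position. With the loop TTTC, 35 cluster genes and 0 variant genes matched. With TTTC or TTTA, a choice made after the transcripts were seen, 41 cluster genes and 1 variant gene, H2afx, matched, against 0.702% of all protein-coding genes. Of the 66 cluster gene models, 50 had at least 40 annotated bases after the stop codon, so models that end earlier may miss the element. The windows below show the element of H2afx beside those of the linker histone gene Hist1h1c and the H2A gene Hist3h2a, the cluster genes with the smallest p that hold it, with the stem and loop in capitals.
H2afx: acaaaGGCCCTTTTAAGGGCCaccacc
Hist1h1c: caaaaGGCTCTTTTCAGAGCCaccact
Hist3h2a: ccaaaGGCTCTTTTCAGAGCCacccac
On GRCm38 these lie at chr9:44335235-44335261, chr13:23739507-23739533 and chr11:58955167-58955193, all on the plus strand, as read from GENCODE M21 transcripts. The H2afx element begins 46 bases after the stop codon, and its annotated transcript runs 822 bases beyond it and has a poly(A) signal near its end. Hist1h1c and Hist3h2a also hold both kinds of 3′ end signal, with 840 and 1643 bases from the element to the transcript end. Having both is thus not particular to H2afx. A match is a description of letters in the reference, and the deposited counts do not tell which 3′ end a read came from.

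Levels are counts per 1000000 (CPM) of a scaled library size, the counts in tested genes times a TMM factor. The factors were 1.08 to 1.33 in wild-type and 0.567, 1.05, 0.728 and 1.01 in Neat1 null libraries 1 to 4. CPM are thus not plain shares of gene counts. Neat1 itself, the check of the labels, had 138, 588, 753 and 1320 CPM in wild-type libraries 1 to 4 and 6.92, 11.3, 7.90 and 6.12 CPM in the Neat1 null libraries. Libraries held 19651035 to 38950207 counts in genes, with the lowest depth in Neat1 null library 1. Ribosomal protein genes took 5.72% to 6.76% of counts in wild-type and 7.98% to 23.2% in Neat1 null libraries. The slope of log2 CPM deviations per doubling of gene length was 0.14 to 0.25 in wild-type libraries, 0.01 and -0.05 in Neat1 null libraries 2 and 4, and -0.31 and -0.48 in Neat1 null libraries 1 and 3. All Neat1 null slopes lay below all wild-type slopes. Short genes thus took more of the counts in every Neat1 null library than in wild-type libraries, most of all in libraries 1 and 3. Fits without libraries 1 and 3 are therefore not free of this difference. Its part in the values below was not tested except by the correction for length and GC content given beside them. Xist exceeded the Y-linked genes in the 4 wild-type libraries and Neat1 null library 3, and the Y-linked genes exceeded Xist in the other 3. Genotype and this difference can be told apart only through Neat1 null library 3, so a fit with it as a covariate sets that 1 library against the wild-type group. Its log2 fold changes of 3.26 for H2afx, 3.43 for H1fx and 1.75 for Cenpa therefore say nothing on whether the calls hold. Of 12 fibroblast markers Vim (1860 ± 428 CPM in wild-type, SD, n = 4), Fn1 and Sparc were abundant, while Postn, Dcn and Lum averaged under 1 CPM. Of the 10 tested, Pdgfra, a receptor of mesenchymal cells, was called lower (90.0 to 7.504 CPM, log2 fold change -3.59, adjusted p = 0.00806, edgeR), also after the length and GC correction (-2.98, adjusted p = 0.0347). The collagen genes Col1a1 and Col1a2 had -1.16 and -2.62 and Pdgfrb -0.60, none called, and the median of the 10 was -0.23. Positive values were held by 3 of the 10, the abundant Sparc (1.10, adjusted p = 0.0652, edgeR), Vim (0.38) and Fn1 (0.29), none called. The summed fibroblast markers ranged from 1960 to 3771 CPM in wild-type and from 2986 to 4640 CPM in Neat1 null libraries. The epithelial marker sum, mostly Krt18, ranged from 199.9 to 683 and from 272 to 3292 CPM. The haematopoietic sum, mostly Cd68, which was called lower (-2.47, adjusted p = 0.0239, edgeR), ranged from 9.20 to 102 and from 4.13 to 18.4 CPM, and the endothelial sum from 5.04 to 44.3 and from 0.359 to 2.60 CPM. The neural sum ranged from 26.3 to 53.2 and from 7.99 to 26.1 CPM, with Map2 called lower (-1.39, adjusted p = 0.0439, edgeR), and the muscle sum from 3.26 to 15.4 and from 2.73 to 15.6 CPM. The part of these other cell type markers in the results was not tested, and in bulk samples fewer cells of a type and less RNA per cell cannot be told apart.

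Of the 10 variant genes, H2afx, H1fx and Cenpa were higher in Neat1 null libraries and 0 were lower at an adjusted p under 0.05 (edgeR, adjusted over 13316 genes). Over all genes tested 17.7% were called, 9.97% of them higher and 7.72% lower as shares of genes tested. All 10 fitted log2 fold changes lay above 0, with a median of 0.93 against -0.06 over all genes tested. The libraries of both genotypes did not overlap for 7 of the 10 genes, each time with Neat1 null higher. Over all genes this held for 22.6%, and for 11.7% with Neat1 null higher. Overlap was read on TMM-scaled CPM, and the count of 7 depends on this scaling. As plain shares of gene counts, only H1fx of these genes stayed without overlap. On that scale the share over all genes was not counted. The factors, given above, were lowest in Neat1 null libraries 1 and 3, which raises the CPM of these libraries. At an unadjusted p under 0.05 there were 5 variant genes, against 36.0% of all genes. DESeq2 called 5 of them (24.7% of all genes), adding H2afz and H3f3b. With gene length and GC content corrected for, library by library, 4 were called (12.5% of all genes), adding H3f3b.

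**Figure D1:**
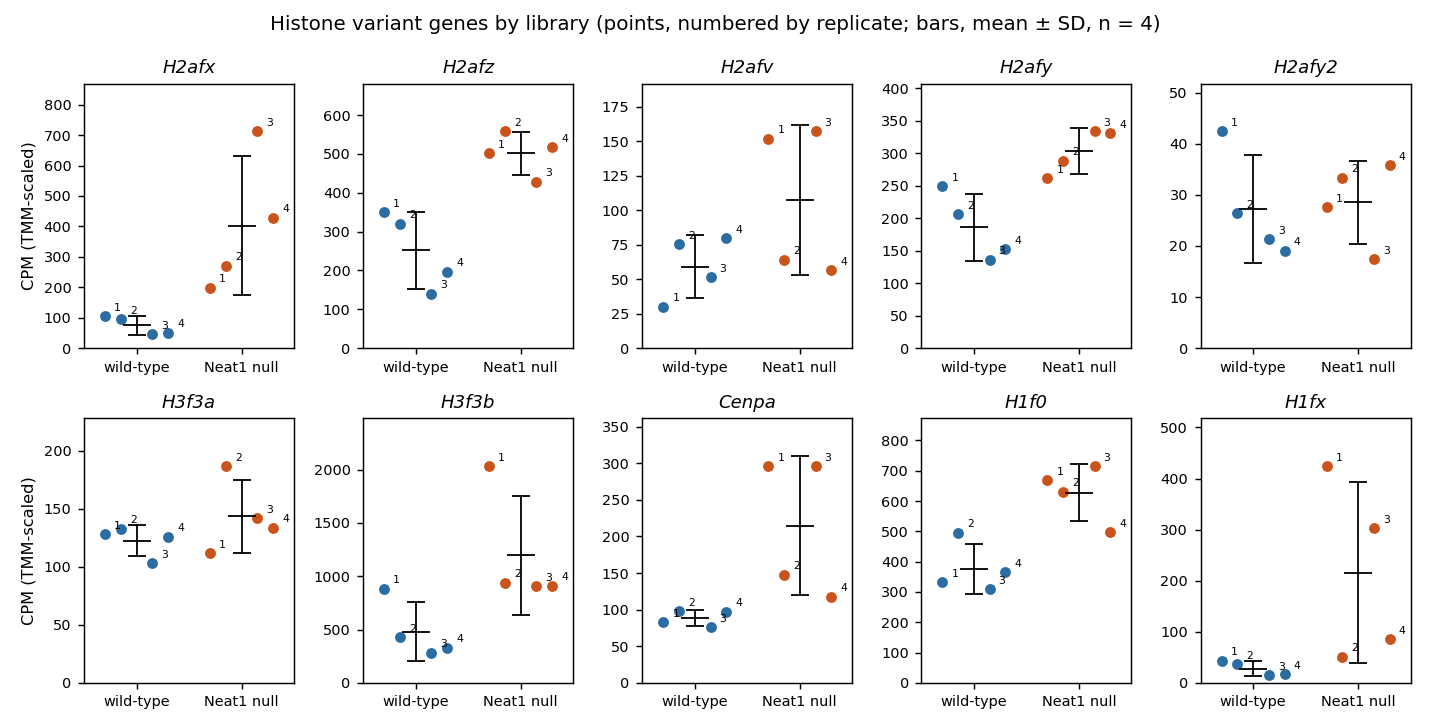
Each panel plots 1 variant gene as TMM-scaled CPM on an axis from 0, with 1 numbered point per library and bars for mean ± SD (n = 4). On this scale the Neat1 null libraries lie above every wild-type library in H2afx, H2afz, H2afy, H3f3b, Cenpa, H1f0 and H1fx. The groups overlap in H2afv, H2afy2 and H3f3a. As plain shares of gene counts only H1fx stays without overlap.

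H2afx encodes H2A.X, the H2A form whose tail is phosphorylated around DNA double-strand breaks. It is a gene of 1 exon on chromosome 9 (44334694 to 44336077, plus strand) and had 105, 95.1, 46.4 and 50.9 CPM in wild-type libraries 1 to 4 and 199, 270.3, 712 and 428 CPM in Neat1 null libraries 1 to 4. On TMM-scaled CPM the lowest Neat1 null library was 1.89 times the highest wild-type library, the widest gap among the 10 genes. The gap rests on the scaling. Neat1 null library 1 had 2211 of 19651035 gene counts and wild-type library 2 had 4305 of 37069334. As plain shares of gene counts the groups thus overlapped. The fit put its log2 fold change at 2.44 (SE 0.47, adjusted p = 0.0180, edgeR), which is 5.41-fold, with a 95% interval from 1.43 to 3.44. Neat1 null library 3 stood highest, and the Neat1 null libraries differed among themselves by 3.59-fold. The fold change was 1.62 after the length and GC correction (adjusted p = 0.0424) and 2.22 without Neat1 null libraries 1 and 3, where the call ended (adjusted p = 0.110). Of its 50-base stretches 6.14% also occur in transcripts of other genes, and 141 bases overlap the microRNA model Gm44335 on the other strand.

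H2A.Z, the H2A form found at promoters and enhancers, is encoded by H2afz and H2afv, which are separate genes for closely similar proteins. H2afz (chromosome 3, 137864487 to 137866922, plus strand) had 350.2, 320.0, 140.4 and 196 CPM in wild-type and 501, 558, 428 and 517 CPM in Neat1 null libraries. The groups did not overlap, and the Neat1 null libraries were close together. The log2 fold change of 0.99 (SE 0.39) did not pass (adjusted p = 0.0831), and its 95% interval ran from 0.17 to 1.82. H2afv (chromosome 11, 6427229 to 6444443, minus strand) had 30.04, 75.2, 51.6 and 79.4 CPM in wild-type and 152, 64.0, 157 and 56.3 CPM in Neat1 null libraries. Neat1 null libraries 1 and 3 stood above all wild-type libraries, while libraries 2 and 4 lay within the wild-type range. The log2 fold change of H2afv was 0.86 (SE 0.43, adjusted p = 0.163), and 0.01 without Neat1 null libraries 1 and 3. H2afz shared 35.4% of its 50-base stretches with other genes, 4 of them pseudogenes, the largest share among the 10, so its counts depend most on how the authors placed such reads.

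MacroH2A, an H2A with a large extra domain that is associated with the inactive X chromosome and other silent regions, is encoded by H2afy (macroH2A1) and H2afy2 (macroH2A2). H2afy (chromosome 13, 56073619 to 56136361, minus strand) had 249, 206, 136 and 153 CPM in wild-type and 261, 288, 334 and 331 CPM in Neat1 null libraries. The groups did not overlap, although wild-type library 1 came within 1.05-fold of the lowest Neat1 null library. The fitted log2 difference was 0.71 (SE 0.35, adjusted p = 0.155), and 0.96 after the length and GC correction (adjusted p = 0.0505). H2afy2 (chromosome 10, 61738665 to 61784147, minus strand) had 42.4, 26.4, 21.3 and 19.0 CPM in wild-type and 27.6, 33.4, 17.4 and 35.7 CPM in Neat1 null libraries. Those ranges overlapped almost fully, with the lowest value in Neat1 null library 3. Its log2 fold change of 0.06 (SE 0.37, adjusted p = 0.911) had an interval from -0.72 to 0.84, and its sign turned with upper-quartile factors (-0.080) and with the length and GC correction (-0.32).

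H3.3, the H3 form deposited throughout the cell cycle, is encoded by H3f3a and H3f3b, which specify the same protein. H3f3a (chromosome 1, 180800832 to 180813943, minus strand) had 128, 133, 103 and 126 CPM in wild-type and 112, 187, 142 and 133 CPM in Neat1 null libraries. The groups overlapped, and the log2 fold change was 0.23 (SE 0.32, adjusted p = 0.634) with an interval from -0.46 to 0.92. H3f3b (chromosome 11, 116021912 to 116027962, minus strand), the variant gene with the highest mean CPM in both genotypes, had 883, 427, 284 and 331 CPM in wild-type and 2033, 939, 907 and 911 CPM in Neat1 null libraries. Neat1 null library 1 stood far above the other 3, and wild-type library 1 lay just under them. The fitted log2 difference was 1.32 (SE 0.48, adjusted p = 0.0671), and it passed without wild-type library 1 (1.798, adjusted p = 0.0226), with the length and GC correction (1.50, adjusted p = 0.0490) and with DESeq2 (1.38, adjusted p = 0.0167). H3f3a shares 13.4% of its 50-base stretches with transcripts of other genes and overlaps 2 models on the other strand, Gm17275 and H3f3aos.

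CENP-A, the H3 form that marks centromeres, is encoded by Cenpa (chromosome 5, 30666777 to 30674830, plus strand). The gene had 82.4, 97.6, 75.6 and 97.1 CPM in wild-type and 296, 148, 296 and 118 CPM in Neat1 null libraries. The wild-type libraries were within 1.29-fold of each other, while Neat1 null libraries 1 and 3 stood above libraries 2 and 4. For Cenpa the log2 fold change came to 1.28 (SE 0.38, adjusted p = 0.0344), which is 2.43-fold, with an interval from 0.47 to 2.09. It was 1.62 after the length and GC correction (adjusted p = 0.0365), and 0.58 (adjusted p = 0.192) without Neat1 null libraries 1 and 3. The adjusted p was 0.0508 with upper-quartile factors and 0.0653 with the replicate number as a block.

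Linker histones bind the DNA between nucleosomes, and H1f0 and H1fx encode the variants H1.0 and H1.X. H1f0 (chromosome 15, 79028450 to 79030504, plus strand) had 332, 496, 309 and 366 CPM in wild-type and 668, 631, 715 and 496 CPM in Neat1 null libraries. The highest wild-type and the lowest Neat1 null library were within 1.00-fold of each other, and the log2 fold change of 0.74 (SE 0.36) did not pass (adjusted p = 0.155). After the length and GC correction it was 0.29. H1fx (chromosome 6, 87980421 to 87981637, minus strand) had 43.7, 37.1, 14.7 and 16.7 CPM in wild-type and 424, 51.2, 302 and 85.7 CPM in Neat1 null libraries. Libraries 1 and 3 again stood highest, and the Neat1 null libraries spanned 8.29-fold, the widest range of any variant gene in a group. For H1fx the log2 fold change came to 2.94 (SE 0.63, adjusted p = 0.0181), which is 7.69-fold, with an interval from 1.60 to 4.29. It was 1.78 after the length and GC correction (adjusted p = 0.0391) and 1.28 without Neat1 null libraries 1 and 3 (adjusted p = 0.159). H1fx has the shortest exon sequence of the 10 genes, 1217 bases, and the highest GC content, 71.3%. Of its exon bases 213 overlap the antisense model Gm5577 on the other strand and 24 the microRNA model Gm47286 on the same strand.

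**Figure D2:**
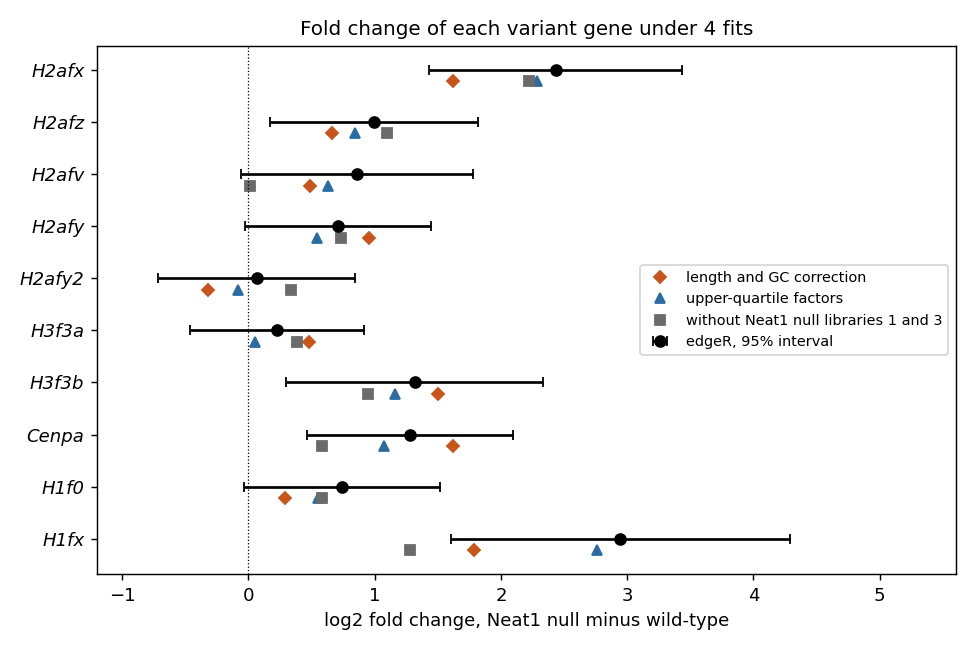
Points give the log2 fold change of each variant gene (Neat1 null minus wild-type), with black bars for the 95% interval of the fit to all 8 libraries and symbols for 3 other fits. H1fx moves from 2.94 to 1.78 and H2afx from 2.44 to 1.62 with the length and GC correction, H2afy2 turns sign with it, and H2afv goes to 0.01 without Neat1 null libraries 1 and 3.

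With 1 library left out in turn, 9 of the variant genes kept a log2 fold change above 0 in all 8 fits and H2afy2 in 4. H2afx ranged from 2.02 to 2.66, H1fx from 2.38 to 3.28 and Cenpa from 1.08 to 1.48. The calls depended on the library that was left out. With wild-type library 3 or 4, or Neat1 null library 3, left out, 0 of the 10 genes were called by edgeR, with 3, 4 and 5 of them at an unadjusted p under 0.05. The share of all genes under that unadjusted cut was not counted in these fits and was 36.0% with all libraries. The 3, 4 and 5 can therefore not be set apart from the background. The adjusted p of H2afx in these fits was 0.0612, 0.0684 and 0.0646 and that of H1fx 0.0687, 0.0684 and 0.0646. Cenpa lost its call in these fits too (0.114, 0.101 and 0.0753), and also when wild-type library 1 or 2 or Neat1 null library 1 was left out (0.0529, 0.0627 and 0.0639). Over all genes the number called in the first 3 fits was 18, 11 and 13, against 2356 with all libraries.

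**Figure D3:**
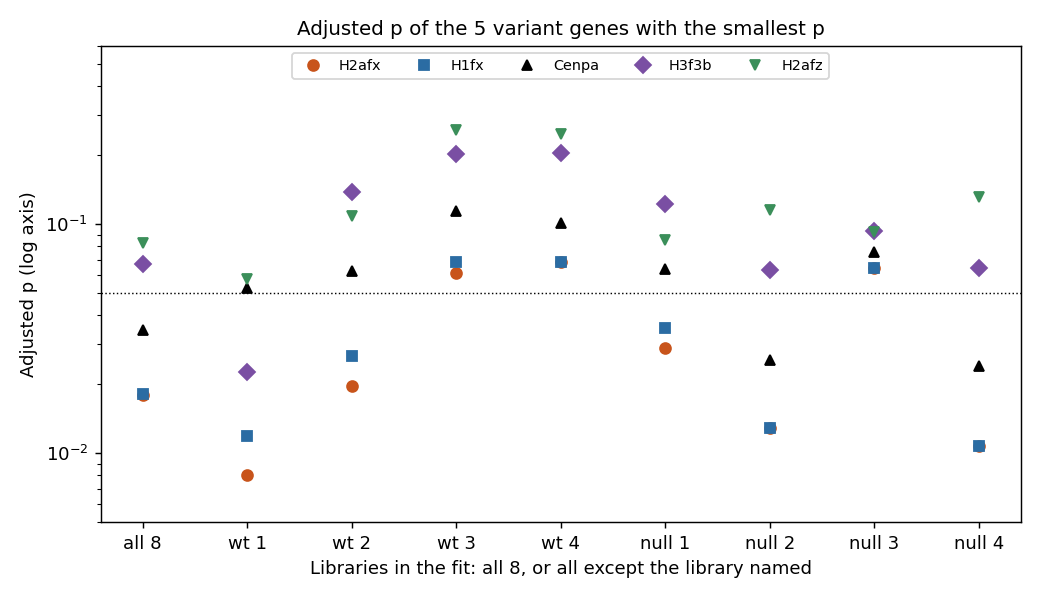
Adjusted p (log axis, edgeR) of the 5 variant genes with the smallest p, for the fit to all 8 libraries and for each fit without the library named on the horizontal axis. The dotted line is 0.05: H2afx and H1fx lie under it in 5 of the 8 fits with a library left out, Cenpa in 2 and H3f3b in 1.

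Pairs of genes for the same or related variants were compared by the ratio of their counts within a library, which does not depend on library size. H3f3b took most of the H3.3 reads in every library, with H3f3a at 12.7%, 23.7%, 26.6% and 27.6% of their sum in wild-type and 5.21%, 16.6%, 13.5% and 12.8% in Neat1 null libraries. The log2 ratio of H3f3a to H3f3b averaged -1.83 ± 0.65 in the wild-type group against -2.99 ± 0.82 in the Neat1 null group (SD, n = 4 each, exact 2-sided permutation p = 0.114, adjusted 0.152 over the 4 ratios). Wild-type library 1 lay within the Neat1 null range. The log2 ratio of H2afy to H2afy2 was 2.80 ± 0.22 and 3.46 ± 0.54, with no overlap, at the smallest p this design allows (exact permutation p = 0.0286, adjusted 0.114). Neat1 null library 3 had the highest value, with H2afy at 95.05% of the sum against 89.6% to 90.5% in the other 3 and 85.5% to 88.9% in wild-type. The log2 ratio of H1f0 to H1fx was 3.88 ± 0.71 and 2.01 ± 1.33 (exact permutation p = 0.0571, adjusted 0.114). H1f0 made up 61.1% and 70.3% of the pair in Neat1 null libraries 1 and 3, against 92.5% and 85.3% in libraries 2 and 4 and 88.4% to 95.6% in wild-type. The log2 ratio of H2afz to H2afv was 2.10 ± 1.02 and 2.37 ± 0.92 (exact permutation p = 0.771, adjusted 0.771). Its high values lay in wild-type library 1 and Neat1 null libraries 2 and 4, where H2afz made up 92.1%, 89.7% and 90.2% of the pair, against 71.2% to 81.0% in the other 5 libraries. None of the 4 ratios passed after adjustment, and H2afy to H2afy2 and H1f0 to H1fx each had an adjusted p of 0.114 (exact permutation). A ratio that alone reaches the smallest p of this design cannot pass after adjustment over 4 ratios, even with full separation. The lack of a call for H2afy to H2afy2 therefore says nothing on whether that ratio differs.

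**Figure D4:**
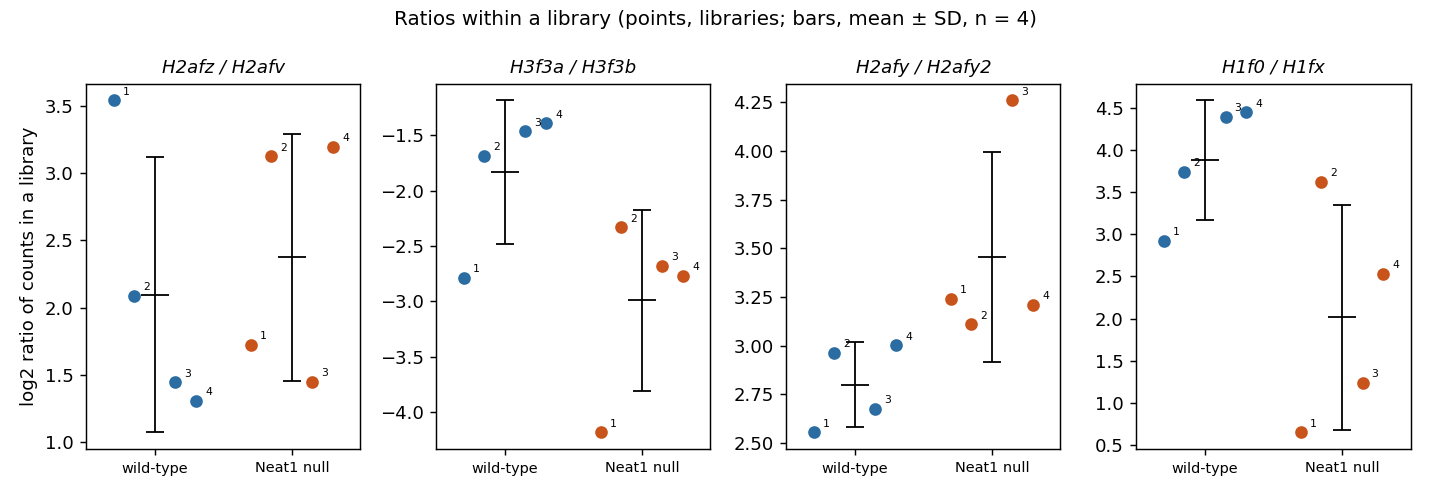
Each panel shows the log2 ratio of the counts of 2 related variant genes within each library (numbered points), with bars for mean ± SD (n = 4). Only the H2afy to H2afy2 ratio has no overlap between the genotypes, and the H2afz to H2afv ratio splits both genotypes into high and low libraries.

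Levels were put in order per kilobase of merged exons, as CPM per kilobase. In wild-type libraries H1f0 (183 ± 40.6), H3f3b (162 ± 92.2) and H2afz (142 ± 56.1) stood highest, and the ranges of neighbours overlapped. The next gene, H2afx (53.7 ± 21.7), lay below H2afz in every library with no overlap of their ranges. Below it came H2afv (36.2 ± 14.0), H3f3a (34.9 ± 3.76), H2afy (27.3 ± 7.60), H1fx (23.1 ± 11.9), Cenpa (15.05 ± 1.87) and H2afy2 (12.5 ± 4.85), and each overlapped the next. In Neat1 null libraries the order was H3f3b (402 ± 187), H1f0 (305 ± 45.8), H2afx (291 ± 165), H2afz (282 ± 30.5), H1fx (177 ± 146), H2afv (65.7 ± 33.4), H2afy (44.6 ± 5.14), H3f3a (40.9 ± 8.99), Cenpa (36.6 ± 16.2) and H2afy2 (13.1 ± 3.76). Only Cenpa and H2afy2 were neighbours without overlap there. Per kilobase of the longest transcript, H2afz was first in wild-type (235 ± 93.2) and second to H3f3b in Neat1 null libraries (469 ± 50.6 and 476 ± 222), so the order at the top depends on the transcript model.

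Cluster histone genes were read beside the variants. Their summed level was 58.3, 26.6, 15.8 and 30.9 CPM in wild-type and 259.9, 159.8, 204 and 212 CPM in Neat1 null libraries, over 66 genes. The 10 variant genes together had 2246, 1912, 1182 and 1435 CPM in wild-type and 4673, 3170.0, 4011 and 3112 CPM in Neat1 null libraries. The groups overlapped in neither sum, and the ratio of the group means was 6.35 for the cluster genes and 2.21 for the variants. Both ratios hold the TMM scaling. Without it, the variants took 0.157% to 0.242% of gene counts in wild-type and 0.265% to 0.334% in Neat1 null libraries. As a share of the variant sum, which does not depend on library size, cluster reads were 1.33% to 2.60% in wild-type and 5.04% to 6.80% in Neat1 null libraries. Without H2afx the shares were 1.39% to 2.72% and 5.51% to 7.88%. Neat1 null libraries 1 and 3, which stood highest in H1fx, H2afv and Cenpa, did not stand apart in this share (5.56% and 5.08%, against 5.04% and 6.80% in libraries 2 and 4). Of the 66 cluster genes 24 were tested and 22 called, all higher, with a median log2 fold change of 3.24, and 9 were called after the length and GC correction. Over all genes tested the shares called were 17.7% and 12.5%. The number of cluster genes called was 2, 1 and 1 with omission of wild-type library 3, of wild-type library 4 and of Neat1 null library 3. Of those 24, 19 averaged under 1 CPM in wild-type, so many passed the low-count filter through the Neat1 null libraries. The 22 calls and the median of 3.24 thus rest partly on that filter. Against the 5 tested cluster genes that averaged at least 1 CPM in wild-type (0.91 to 2.92), a selection made after the values were seen, H2afx with 2.44 lay below 2 and H1fx with 2.94 below 0. Hist1h1c and Hist3h2a, whose elements are printed above beside that of H2afx, had log2 fold changes of 2.86 (SE 0.48) and 2.92 (SE 0.40). Hist1h1c averaged 9.86 ± 6.59 CPM in the wild-type and 71.6 ± 23.9 CPM in the Neat1 null group, and Hist3h2a 4.68 ± 2.33 and 35.5 ± 3.08 CPM (SD, n = 4 each).

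**Figure D5:**
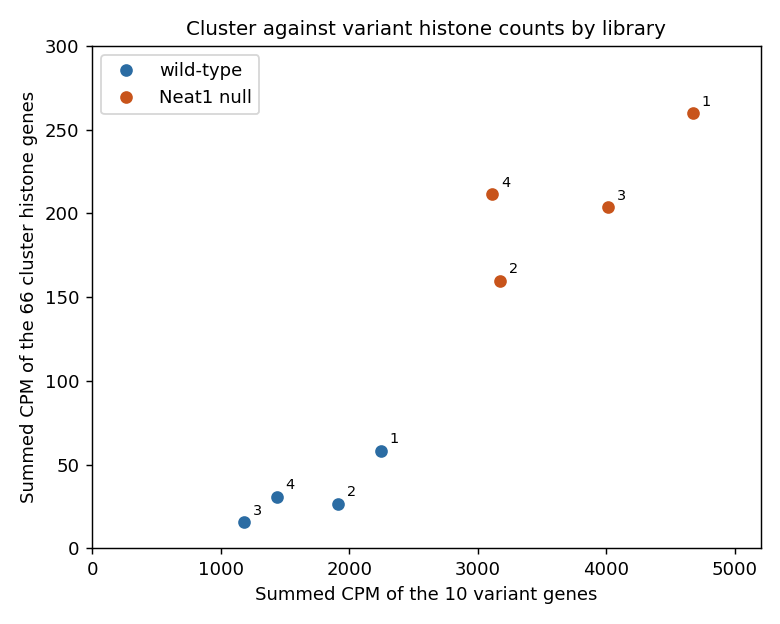
Each numbered point is 1 library, with the summed CPM of the 10 variant genes on the horizontal and of 66 cluster histone genes on the vertical axis, both from 0. Wild-type libraries lie between 15.8 and 58.3 CPM of cluster reads and Neat1 null libraries between 159.8 and 259.9, while the variant sums run from 1182 to 2246 and from 3112 to 4673.

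Of 12 further variant histone symbols, 9 were in the files and 2 tested. H2afj, an H2A variant, rose by 2.14 on the log2 scale (SE 0.55, adjusted p = 0.0224), from 48.2 ± 17.4 to 213 ± 203 CPM, and was not called after the length and GC correction (1.46, adjusted p = 0.0679) or when any of those 3 libraries or Neat1 null library 1 was omitted. H2afy3 averaged 0.330 CPM in wild-type and was not called.

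The proteins that place and remove the variants were read from lists whose background is the 17.7% called over all genes. Of 18 tested chaperones of H3 and H3.3, 2 were higher and 0 lower, with a median log2 fold change of 0.21. They were Chaf1b, a subunit of the replication-coupled chaperone CAF-1 (1.68, SE 0.43, adjusted p = 0.0216), and Nasp, which binds free H3-H4 (1.60, SE 0.49, adjusted p = 0.0382). Atrx, which places H3.3 with Daxx at repeats, had -1.35 (SE 0.50, adjusted p = 0.0714). Of 19 tested genes for H2A.Z exchange, 3 were higher and 0 lower (median 0.05): Znhit1 of the SRCAP complex (2.28, SE 0.53), Dmap1 (1.77, SE 0.43) and the helicase gene Ruvbl2 (1.50, SE 0.43). Of 19 tested genes for CENP-A deposition and the centromere, 2 were higher and 0 lower (median 0.56): Cenpm (1.71, SE 0.49) and Cenpb, which binds a centromeric DNA box (1.26, SE 0.42). Cenpw had 2.001 (SE 0.66, adjusted p = 0.0532).

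Of 12 tested genes that mark or read H2A.X, 1 was higher and 2 lower, with a median of -0.52. Corrected for length and GC, the list had 2 higher and 0 lower and a median of 0.25, so its direction turned, while the median of all genes was 0.09 against -0.06. Ppp4c, a phosphatase of phosphorylated H2A.X, rose by 1.90 (SE 0.42), from 96.4 ± 23.3 to 359 ± 180 CPM. Prkdc, the DNA-PK catalytic subunit that phosphorylates H2A.X, fell by 1.46 (SE 0.42), from 41.3 ± 12.3 to 15.1 ± 7.20 CPM, and Eya1, a tyrosine phosphatase, by 1.54 (SE 0.48). After the length and GC correction Prkdc had -0.63 and Eya1 -0.89, neither called (adjusted p = 0.138 and 0.204), whereas Ppp4c (1.84, adjusted p = 0.0347) and the ubiquitin ligase gene Rnf8 (1.55, adjusted p = 0.0385) were. The 9 tested partners of linker histones and macroH2A gave 0 calls by edgeR and by DESeq2, with 0 at an unadjusted p under 0.05. Their smallest p belonged to Cbx3, an HP1 protein (-0.73, SE 0.39), Prmt6 (0.55, SE 0.36) and Kdm5b (-0.50, SE 0.33).

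Of 20 tested genes that process histone pre-mRNA 3′ ends, 4 were higher and 0 lower, with a median of 0.75. All 4 encode Sm proteins, which also form the core of spliceosomal snRNPs: Snrpg (2.17, SE 0.50), Snrpb (1.93, SE 0.51), Snrpf (1.36, SE 0.43) and Snrpe (1.76, SE 0.57), the last named because the count is small. After the length and GC correction Snrpg was called (adjusted p = 0.0378) and Snrpb, Snrpe and Snrpf were not (0.0512, 0.0847 and 0.117). The 4 others then called, Cpsf3, Sympk, Eri1 and Ncbp1, encode no Sm proteins. Of 21 S phase and proliferation genes 3 were higher and 0 lower, with a median of 0.53: the mitotic activator Cdc20 (1.87, SE 0.46), thymidylate synthase, Tyms (1.58, SE 0.43), and the helicase subunit Mcm5 (1.85, SE 0.55). In the fits that left out wild-type library 3 or 4, or Neat1 null library 3, 0 genes of these 7 lists were called by edgeR. With all libraries, unadjusted p-values under 0.05 (edgeR) numbered 7 of 18 chaperones, 6 of 19 H2A.Z, 9 of 19 centromere, 6 of 12 H2A.X, 9 of 20 processing and 6 of 21 S phase genes. Over all genes this share was 36.0%. DESeq2 called 5, 4, 4, 3, 6 and 6 of the lists, with 18 centromere genes tested, against 24.7% of all genes. When length and GC content were corrected for, the chaperones called were Chaf1b, Nasp and Rbbp4, the H2A.Z genes Znhit1 and Dmap1 and the S phase genes Tyms and Mcm5, and 0 centromere genes were called. Over all genes 12.5% were called in that fit. Upper-quartile factors turned the medians of the H2A.Z list (-0.14) and of the linker and macroH2A partners (-0.06).

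Genes with the most similar pattern over the 8 libraries were sought among 10008 genes of average log2 CPM of at least 3, by Pearson's r of log2 CPM. The points of a correlation share their libraries and the genotype difference, so r is given as a description. H2afz was closest to Pitpna (0.988), Ncbp1, the nuclear cap-binding subunit (0.986), and the mitotic kinase gene Melk (0.981). H3f3b was closest to Polr1e, a subunit of RNA polymerase I (0.999), Max, the partner of Myc (0.996), and 9430016H08Rik (0.995). H1f0 was closest to Nubpl (0.978), Bloc1s5 (0.971) and Suclg1 (0.965). Cenpa was closest to Chrac1, a histone-fold protein (0.994), Usmg5 (0.993) and Rnaseh2c, a subunit of RNase H2 (0.991). These 3 genes were called higher in Neat1 null libraries (log2 fold changes 1.42, 1.79 and 1.95), as was Polr1e (1.55), although H3f3b was not called. Genes picked for likeness to a called gene over the same libraries are likely to be called too, so their calls are no support for that of Cenpa.

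Promoters of 9 of the 10 variant genes were matched in the RefSeq table (GRCm38.p6), 5 of them under a newer symbol such as H2az1 for H2afz, as windows from 250 bases before the start. The CCAAT box, searched on both strands, occurred in 6 of the 9, among them 4 copies each in H2afv and H3f3b and 3 in H2afz, against 37.4% of all 32851 promoters. TATAAA occurred in 1, H3f3b, against 13.6%, and the E2F letters GCGGGAA in 0, against 4.6%. Of the 3 called genes, Cenpa held 2 CCAAT copies and H1fx 0, and H2afx was the gene with no matched promoter.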

How the data were processed

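Counts per gene symbol were measured by RNA-seq in 8 libraries (4 wild-type, 4 Neat1 null), made with a stranded TruSeq kit per the labels' protocols. The authors deposited raw read counts for each library, and these entered the fits unaltered. CASAVA 1.8, STAR, DESeq2 and the mm10 build are listed, with no roles, in the submitters' processing notes. Which program counted reads, with which strand setting and gene models, is not given in the sources used here. Reads outside genes (5.48% to 15.7%) and ambiguous reads (1.09% to 1.76%) entered neither library sizes nor tests. No replicate pair looked like repeat deposits of 1 library (smallest chi-square over its degrees of freedom 62.1).

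Genes were filtered with filterByExpr (minimum count 10), scaled by TMM and tested with edgeR 4.0.16 in R 4.3.3 (robust quasi-likelihood F test, 2-sided, genotype as the only term), with Benjamini-Hochberg adjustment over all 13316 genes and a threshold of 0.05. Positive log2 fold changes mean higher in Neat1 null, the SE is their size over the square root of F, and 95% intervals use the t distribution of the fit. CPM used the TMM factors. Ratios were log2 of counts plus 0.5, tested by exact permutation over 70 assignments, which cannot give a p below 0.0286. Lengths, GC content and transcripts came from GENCODE M21 (GRCm38, also called mm10), matched for 98.4% of symbols. Overlaps on the other strand were not resolved. The correction for length and GC content fitted splines (5 degrees of freedom each) per library as offsets. DESeq2 1.42.0 and the other alternatives are in the closing section. The fit was tested on simulated counts, with 50 genes per size of difference. True 2-fold differences were called in 2% of cases and 4-fold ones in 64%. For 8-fold and 16-fold differences the rates were 94% and 96%. Of the 141 calls made there, 9.22% were false, against a threshold of 0.05. The simulation held far fewer changed genes than the 2356 called in the data. The adjustment is stricter where fewer genes differ, so the simulated recovery may be too low for the fit to the data. Differences near 2-fold were mostly missed there. The lack of a call at that size, as for H2afz (95% interval from 0.17 to 1.82), does not show equal levels.

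The rule for the variant genes uses no measured value, but they, the gene lists and the alternatives were chosen with earlier results of these data known. Named were the 10 variant genes, Neat1 and, of each list, the 3 tested genes with the smallest p. For the marker lists the most abundant, the called and a few further genes are named instead. Genes of small counts, or called only after the length and GC correction, are named beside these. These additions were chosen after their values were seen. Of the cluster list the third such gene, Hist1h2bc (2.34, SE 0.45), holds no matching stem-loop. A comparison of variant protein sequences was not made here.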

Additional observations from a re-analysis of the deposited data

Results flagged for a closer look

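In 2 of 28 groups of 4 libraries examined (10 genes and 4 ratios in each genotype), 1 library stood apart by Dixon's criterion, which chance alone meets in about 1 in 20 groups. For H3f3b, Neat1 null library 1 had 2033 CPM against 907 to 939 CPM in the other 3, a gap of 0.971 of the range. With that library left out, H3f3b had a log2 fold change of 0.94 (adjusted p = 0.122, edgeR). For the log2 ratio of H2afy to H2afy2, Neat1 null library 3 had 4.26 against 3.11 to 3.24, a gap of 0.886 of the range. That library also had the lowest H2afy2 level of all 8, 17.4 CPM.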

How the results depend on the processing

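The count of all genes called (2356, 1328 higher and 1028 lower) was 7 without Neat1 null libraries 1 and 3, 7 at an adjusted p under 0.01, 3589 with DESeq2, and between 11 and 2965 with 1 library left out. With upper-quartile factors it split into 1036 higher and 1428 lower, and the all-gene median moved from -0.06 to -0.24 (log2). The count of variant genes called (3) was 0 without Neat1 null libraries 1 and 3 (6 at an unadjusted p under 0.05), 0 at an adjusted p under 0.01, 5 with DESeq2, and between 0 and 3 with 1 library left out. For the fit without Neat1 null libraries 1 and 3, the share of all genes under the unadjusted cut was not counted. Same-numbered libraries did not deviate together (Pearson r of deviations from group means 0.317, -0.258, -0.0140 and 0.107), so numbers were not taken as pairs. With the replicate number as a block the count was also 3, but H3f3b (1.37, adjusted p = 0.0465) took the place of Cenpa (1.17, 0.0653), and 2245 genes were called in all. The log2 fold change of H2afy2 turned negative with upper-quartile factors (-0.080) and the length and GC correction (-0.32). With library sex as a covariate it was -0.65, a fit that sets Neat1 null library 3 alone, the lowest in H2afy2, against wild-type. It ranged from -0.075 (without wild-type library 4) to 0.37 with 1 library left out. The cause was not tested. The 4 ratios kept their direction and stayed above the threshold in all 11 alternatives each, several of which cannot reach it (sign flips over 4 pairs, as a replicate block, give at least 0.125). The lowest count of a variant gene in a library was 307.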
